A study of Mus musculus with 56 samples.

Results

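The genes described here are 35 genes of the cell cycle and DNA replication, listed by name and measured in gastrocnemius, a muscle of the calf, from female C57BL/6 mice. Each gene was read from the probe set of highest mean among those annotated to it alone. This gave 34 measured genes out of 18193 in the whole array table. Ccnb1 had no probe set with its symbol alone and was not analysed here. A level is log2 of the deposited intensity plus 16, so a difference of 1 between levels is a doubling well above the floor that 16 sets, and less than the true change for dim probe sets. In all, 56 arrays from 55 mice fell into 9 groups. Mice had nose-only exposure to 4% mainstream cigarette smoke for 2, 12 or 24 weeks (6, 7 and 6 mice). In cessation, smoke lasted 12 weeks and was followed by sham air for 12 weeks, in an arm labelled FA and an arm labelled RA (6 mice each). Controls breathed sham air for 2, 12 or 24 weeks (6 mice each), and a further 6 mice were untreated at week 0. Sessions lasted 2 hours on 5 days a week. FA and RA are not explained in the labels, the sham air labels also carry FA, and ages are not given. Mouse G8 of the 12-week smoke group was measured on 2 arrays, which were averaged. P values below measure the spread between mice.

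Replication starts when the Mcm2 to Mcm7 helicase is loaded onto DNA and switched on. Synthesis then needs the sliding clamp Pcna and a supply of deoxynucleotides, and mitosis is driven by cyclins with Cdk1, by the Aurora and Polo kinases and by the spindle. Many of these genes are transcribed in dividing cells and are quiet in resting ones, through E2F sites in promoters of replication genes and through the cell cycle homology region, often with CCAAT boxes, in promoters of mitotic genes. Adult muscle fibres have left the cell cycle. In muscle tissue the dividing cells are satellite cells and their offspring, vessel and connective tissue cells, and any blood or lymphoid cells in the piece. A bulk sample cannot tell more dividing cells from more RNA per cell.

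Promoters of 29 of the 34 genes were matched in the RefSeq table (build GRCm38.p6), each window holding 250 bases before and 50 after a gene's start. The 7 below are those of Aurka, whose level ran the other way, and of the 6 genes with a window among the 7 that separated 2 sets of arrays without overlap, described next. Capitals mark E2F letters (TTTCCCGC, TTTCGCGC, TTTGCCGC or TTTGGCGC), cell cycle homology letters (TTTGAA or TTCGAA) and CCAAT, searched on both strands, so that a match on the other strand reads as its reverse complement. A pair of E2F matches overlap in Mcm5, a pair of CCAAT matches overlap in Ube2c, and the Birc5 window holds none of the letters. The windows are Mcm5 (chr8:75109259-75109558, plus strand), Cdk1 (chr10:69352863-69353162), Mki67 (chr7:135716330-135716629), Top2a (chr11:99024140-99024439) and Aurka (chr2:172370521-172370820), these 4 on the minus strand, and Birc5 (chr11:117848987-117849286) and Ube2c (chr2:164769679-164769978) on the plus strand.
Mcm5: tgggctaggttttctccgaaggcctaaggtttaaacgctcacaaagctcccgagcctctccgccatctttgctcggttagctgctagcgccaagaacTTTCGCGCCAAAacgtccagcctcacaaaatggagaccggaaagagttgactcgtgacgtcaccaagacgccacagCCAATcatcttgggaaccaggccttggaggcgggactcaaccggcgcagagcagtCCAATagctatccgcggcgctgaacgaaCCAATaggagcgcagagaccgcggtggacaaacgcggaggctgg
Cdk1: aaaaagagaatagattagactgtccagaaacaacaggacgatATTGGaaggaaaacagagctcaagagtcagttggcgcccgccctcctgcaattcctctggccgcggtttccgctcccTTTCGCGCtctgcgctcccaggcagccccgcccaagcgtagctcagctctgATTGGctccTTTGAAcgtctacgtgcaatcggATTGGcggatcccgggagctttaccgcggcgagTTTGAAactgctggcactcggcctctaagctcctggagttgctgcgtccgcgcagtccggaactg
Mki67: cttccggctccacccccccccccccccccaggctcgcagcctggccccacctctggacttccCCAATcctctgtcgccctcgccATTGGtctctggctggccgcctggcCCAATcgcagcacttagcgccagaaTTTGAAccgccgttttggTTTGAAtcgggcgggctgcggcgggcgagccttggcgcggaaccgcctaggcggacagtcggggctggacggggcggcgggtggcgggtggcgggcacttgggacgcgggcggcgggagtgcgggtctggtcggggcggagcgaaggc
Top2a: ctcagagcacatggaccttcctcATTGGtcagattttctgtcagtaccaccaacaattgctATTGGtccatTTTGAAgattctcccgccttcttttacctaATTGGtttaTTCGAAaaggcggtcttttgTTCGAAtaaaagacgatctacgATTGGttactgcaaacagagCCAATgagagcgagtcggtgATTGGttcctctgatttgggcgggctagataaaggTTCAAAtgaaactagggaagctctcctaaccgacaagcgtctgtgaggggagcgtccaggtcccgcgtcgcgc
Birc5: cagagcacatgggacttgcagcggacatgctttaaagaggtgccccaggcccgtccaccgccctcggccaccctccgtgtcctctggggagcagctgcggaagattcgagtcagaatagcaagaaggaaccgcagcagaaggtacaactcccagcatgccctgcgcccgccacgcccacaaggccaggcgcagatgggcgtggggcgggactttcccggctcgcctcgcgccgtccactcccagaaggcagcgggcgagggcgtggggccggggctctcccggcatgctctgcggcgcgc
Ube2c: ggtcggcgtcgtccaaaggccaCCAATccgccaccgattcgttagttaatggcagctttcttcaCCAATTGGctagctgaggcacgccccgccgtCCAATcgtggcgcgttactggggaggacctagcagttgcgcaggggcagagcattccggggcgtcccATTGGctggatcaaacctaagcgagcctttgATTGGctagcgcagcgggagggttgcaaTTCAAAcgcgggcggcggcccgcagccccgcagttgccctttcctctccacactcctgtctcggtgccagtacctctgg
Aurka: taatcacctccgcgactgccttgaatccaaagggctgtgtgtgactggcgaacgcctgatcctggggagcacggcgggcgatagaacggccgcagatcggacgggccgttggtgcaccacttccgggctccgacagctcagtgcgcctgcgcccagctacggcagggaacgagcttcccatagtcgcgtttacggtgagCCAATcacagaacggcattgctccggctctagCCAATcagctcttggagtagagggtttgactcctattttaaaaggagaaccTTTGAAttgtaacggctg
E2F letters stood in 6 of the 29 promoters, or 20.7%, against 2.6% of 27025 genes in the table. They were found in 5 of 11 genes of replication and in 1 of 18 genes of cyclins, chromatin and mitosis, which was Cdk1. Cell cycle homology letters stood in 17 of 29, or 58.6%, against 21.7% of all genes, with 3 of 11 replication genes and 14 of 18 of the others. CCAAT stood in 23 of 29, or 79.3%, against 41.1% of all genes, with 9 of 11 replication genes and 14 of 18 of the others. These are matches of letters and describe the sequences only.

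Mature fibre markers were bright on every array, with sums of 6 genes between 67655 and 75050 intensity units, and array medians of intensity ran between 62.5 and 77.5. Glycam1, a mucin made by the high endothelial vessels of lymph nodes, exceeded 2000 on 12 arrays, where its lowest value was 6944, and its highest on the other 44 arrays was 307. The 12 arrays came from 3 mice of 24 weeks of smoke, 3 of cessation RA, 2 of 12 weeks of smoke, and 1 mouse each of cessation FA, sham air at 24 weeks, sham air at 2 weeks and untreated mice. On these 12 arrays the summed intensity of 10 B and T cell markers was 3844 to 33378. On 41 of the others it was 120 to 761. The remaining 3 arrays, untreated replicate 4, 12-week air replicate 1 and cessation FA replicate 3, were set apart after their levels of these genes were seen, and are described below. All comparisons of arrays of high Glycam1 with others are descriptions, without a test.

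Replication and mitosis genes were higher on the arrays of high Glycam1. The median of the 12 arrays lay above the median of the other 44 for 28 of 34 genes, against 48.8% of all 18193 genes, and the median difference was 0.54 over the 34 genes and -0.01 over all genes. For 7 of the 34 genes every one of the 12 arrays lay above every one of the 41, which held for 4.44% of all genes. None of the 34 lay below on all 12, against 0.115% of all genes. The 7 were Mcm5, Ccna2, Cdk1, Top2a, Mki67, Birc5 and Ube2c. Set against all 44 arrays, with the 3 set apart among them, none of the 34 was without overlap, against 2.75% of all genes.

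In medians of the 12 arrays against the other 44, 7 of 8 helicase genes were higher, with a median difference of 0.43. Mcm5, a subunit of the helicase ring, had a level of 6.98 at lowest, 7.88 at the median and 10.45 at highest on the 12 arrays, against 5.52, 6.14 and 6.72 on the 41. Mcm6, another subunit, had 8.30, 8.74 and 10.89 on the 12 arrays against 6.81, 7.81 and 8.55 on the 41, and 9 of the 12 lay above all 41. The ranges overlapped more for Mcm4, also a subunit, with 9.47, 10.21 and 11.15 on the 12 arrays against 9.0, 9.66 and 10.08 on the 41. Mcm7 ran at 9.05, 9.47 and 10.99 on the 12 arrays against 8.96, 9.17 and 9.53 on the 41. Cdc45, which joins the helicase when it is activated, was the helicase gene whose median was lower on the 12 arrays, by 0.22 against the 44. A second, dimmer Cdc45 probe set, of mean level 5.98, was higher by 0.03.

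Among genes of synthesis and nucleotides the medians of Rrm2 and Pcna were higher on the 12 arrays, and those of Rrm1 and Tyms lower. Rrm2, the ribonucleotide reductase subunit that dividing cells make in S phase, had 9.30, 9.97 and 12.55 on the 12 arrays against 8.17, 8.71 and 9.40 on the 41, and 10 of the 12 lay above all 41. Pcna, the clamp of the replicative polymerases, had 10.54, 10.85 and 12.14 on the 12 arrays against 10.06, 10.39 and 10.72 on the 41. Rrm1, the large subunit of the reductase, had 8.67, 9.15 and 9.47 on the 12 arrays against 9.08, 9.33 and 9.57 on the 41, the other way round. Tyms, thymidylate synthase, was among the 9 genes too dim to be tested.

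Cyclins and Cdk1, with a median difference of 0.95, and the 2 chromatin genes, with 2.16, showed the widest gaps of the 6 roles. Ccna2, the cyclin of S phase and early mitosis, had 6.73, 7.32 and 10.24 on the 12 arrays against 5.83, 6.33 and 6.71 on the 41. Cdk1, the kinase of mitotic entry, had 6.42, 6.95 and 10.24 on the 12 arrays against 5.41, 5.83 and 6.30 on the 41. Neither gene's sets overlapped. Mki67, which coats mitotic chromosomes and gives the Ki-67 stain of dividing cells, had 6.56, 7.20 and 11.38 on the 12 arrays against 4.62, 5.30 and 6.46 on the 41. For Top2a, the topoisomerase that untangles replicated DNA, levels were 6.72, 7.52 and 11.02 on the 12 arrays against 4.31, 5.06 and 6.24 on the 41. Mki67, Top2a and Cdc20 on the 41 arrays had medians under 5.71, the level below which genes were not tested, so their means passed that limit through the arrays on which they were high.

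Mitotic kinase, checkpoint and passenger genes were higher on the 12 arrays for 7 of 8. Birc5, or survivin, and Cdca8, or borealin, are subunits of the passenger complex that corrects spindle attachments. Birc5 had 6.84, 7.58 and 11.39 on the 12 arrays against 5.19, 5.73 and 6.36 on the 41, and Cdca8 had medians of 7.47 on the 12 arrays and 6.51 on the 41, with 9 of the 12 arrays above all 41. Mad2l1, a spindle checkpoint protein, had 6.82, 7.31 and 9.47 on the 12 arrays against 6.25, 6.68 and 6.94 on the 41, with 11 of 12 arrays above all 41. Aurka, the kinase of centrosomes and spindle poles, went the other way, with 6.78, 7.75 and 8.53 on the 12 arrays against 7.67, 8.26 and 8.83 on the 41. A second, dimmer Aurka probe set, of mean level 4.67, differed by -0.01 between the sets in medians against the 44.

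Spindle, cytokinesis and exit genes were higher on the 12 arrays for 6 of 8. Ube2c, the ubiquitin-conjugating enzyme that works with the anaphase-promoting complex, had 6.58, 6.84 and 9.97 on the 12 arrays against 5.59, 6.07 and 6.55 on the 41 and did not overlap. Cdc20, an activator of that complex, had 5.53, 6.25 and 9.52 on the 12 arrays against 4.97, 5.53 and 6.16 on the 41. Cdca3, which acts at mitotic entry, had 6.02, 6.77 and 10.01 on the 12 arrays against 5.86, 6.33 and 6.62 on the 41. Tpx2, which activates Aurka on spindle microtubules, had 7.10, 7.49 and 8.88 on the 12 arrays against 6.52, 7.62 and 8.51 on the 41, and Nusap1, a spindle microtubule binder, had 5.44, 5.86 and 6.22 on the 12 arrays against 5.61, 6.09 and 6.29 on the 41. Probe sets disagreed for both: a second Tpx2 probe set was higher by 0.30 on the arrays of high Glycam1 where the one used was lower by 0.16, and a second Nusap1 probe set was higher by 0.93 where the one used was lower by 0.21.

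**Figure D1:**
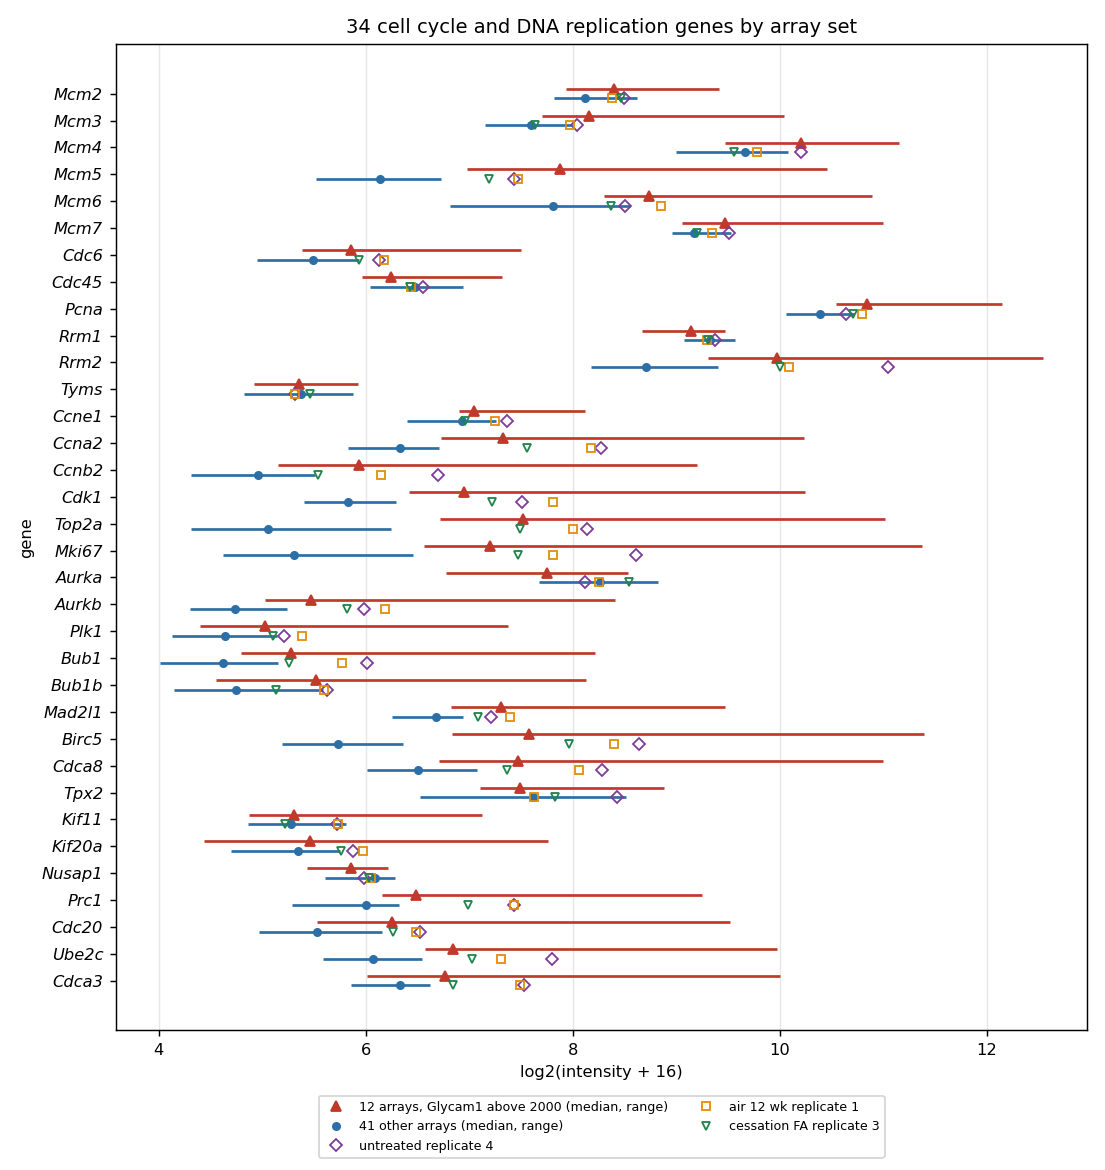
Levels, log2(intensity + 16), of the 34 measured genes on the 12 arrays with Glycam1 above 2000 (red triangle, median; line, range) and on 41 others (blue circle and line), with the 3 arrays set apart as open symbols. The red and blue ranges do not overlap for Mcm5, Ccna2, Cdk1, Top2a, Mki67, Birc5 and Ube2c, and for Aurka the red median lies lower.

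Mouse G8 gives the same contrast within an animal, since Glycam1 was high on 1 of its 2 arrays. The array of high Glycam1 was above the other for 27 of the 34 genes, against 54.6% of all genes, and by at least 1 for 13 of the 34, against 10.9%. The median difference was 0.79 over the 34 genes and 0.06 over all genes. Mcm5 had a level of 8.62 on the array of high Glycam1 and 5.68 on the other. Mki67 had 7.25 on the array of high Glycam1 and 5.19 on the other, and Birc5 had 7.93 on the array of high Glycam1 and 5.68 on the other. Aurka was the gene that went lower by more than 1, with 6.78 on the array of high Glycam1 and 8.09 on the other, a size of fall met by 1.42% of all genes. Whether the arrays came from separate pieces of muscle is not given in the labels, and with 1 mouse there is no test. The array of high Glycam1 also has an identifier outside the main block of array identifiers, and the other array has one inside it. The difference in Glycam1 and the difference in block cannot be told apart in this mouse.

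**Figure D2:**
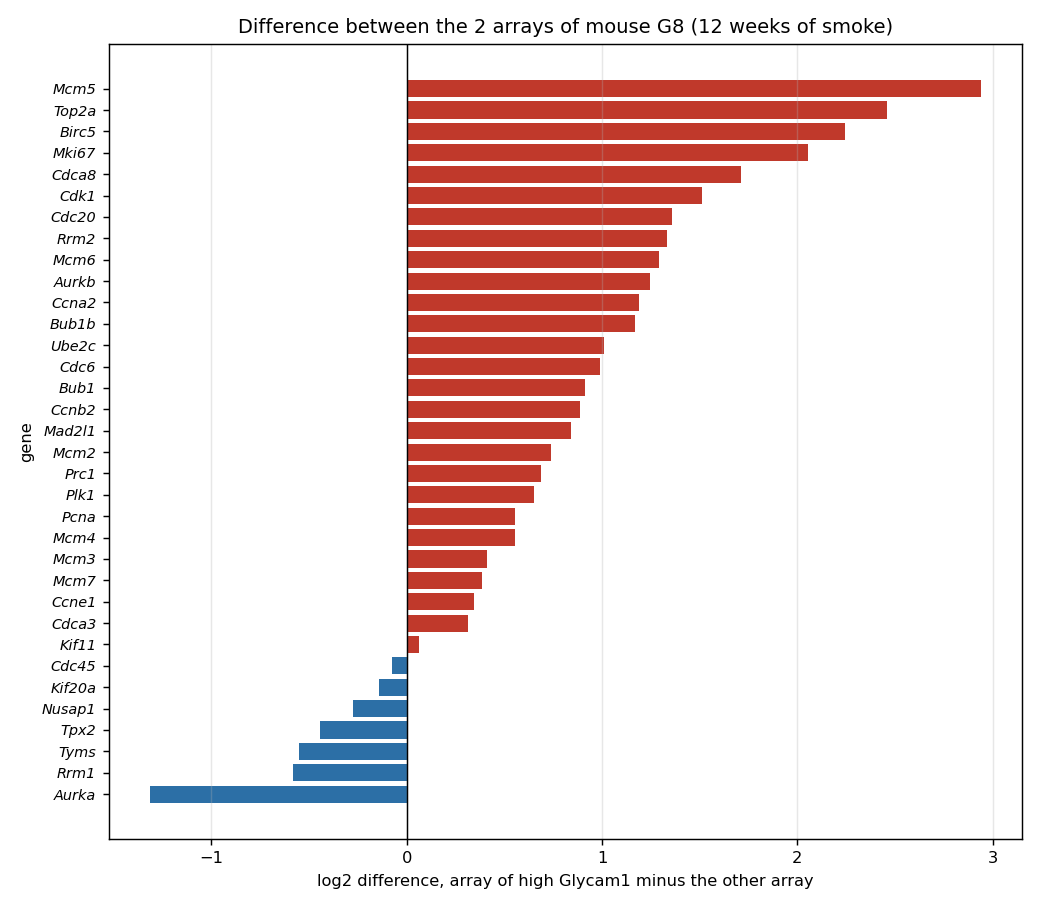
Difference in level between the 2 arrays of mouse G8, the array of high Glycam1 minus the other, for each of 34 genes. Red bars are higher and blue bars lower on the array of high Glycam1, with Mcm5 at 2.94 at the top and Aurka at -1.31 at the bottom.

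High levels also occurred on the 3 arrays set apart, all without high Glycam1. As they were set apart for such levels, the counts describe the choice: untreated replicate 4 lay above all 41 arrays for 23 of 34 genes, 12-week air replicate 1 for 22, and cessation FA replicate 3 for 18. The shares of all genes above all 41 were 3.48%, 5.80% and 6.90% in the same order. Mki67 was 8.61 in untreated replicate 4, 7.81 in 12-week air replicate 1 and 7.48 in cessation FA replicate 3. Top2a was 8.14, 8.01 and 7.49 in the same order, and Rrm2 was 11.05, 10.09 and 10.00. In all 3 arrays these levels exceeded the highest of the 41.

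Other cell markers differed between the 3 arrays. In untreated replicate 4 all 4 myeloid precursor markers and 3 of 4 erythroid markers lay above all 41 arrays. The summed myeloid intensity was 984 against 15.6 to 77.2 on the 41. Markers of immature thymocytes summed to 306 against 48.2 to 192, and 2 of 4, Rag1 and Dntt, lay above all 41. Among the genes tested, those furthest above the 41 were S100a9, S100a8 and Camp, which are neutrophil genes. The antibody genes Igk, Jchain and Ighm stood at ranks 4, 7 and 8. The B and T cell sum of untreated replicate 4 was 467, with 1 of 10 markers above all 41. In 12-week air replicate 1 all 5 macrophage markers were above all 41, with a sum of 5796 against 1161 to 3876. Fibroblast markers summed to 21918 there against 11954 to 19917, with 2 of 4 above all 41. So was 1 marker each of the satellite cell and myoblast, endothelium, mature fibre, germinal centre and B and T cell lists. Top2a and Birc5 were the genes furthest above the 41 among the 12351 tested, at ranks 3 and 5 among all 18193. As this array was set apart for high levels of the cell cycle genes, these ranks describe the choice. Top2a was also among the genes tested only through the arrays on which it was high. In cessation FA replicate 3, 4 of 5 macrophage and 5 of 10 B and T cell markers were above all 41, with sums of 5988 and 1000. Those 5 were the T cell genes Cd3e, Cd3d, Cd3g, Cd4 and Cd2. Cd8a and the B cell genes Ms4a1, Cd79a, Cd79b and Cd22 were not above all 41. The leading genes of this array, among those tested, were the interferon-induced chemokines Cxcl9 and Cxcl10. Satellite cell and myoblast markers summed to 2134, 2967 and 2756 in untreated replicate 4, 12-week air replicate 1 and cessation FA replicate 3, within the 1972 to 4260 of the 41. The part of these cells in the levels of the cell cycle genes was not tested.

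**Figure D3:**
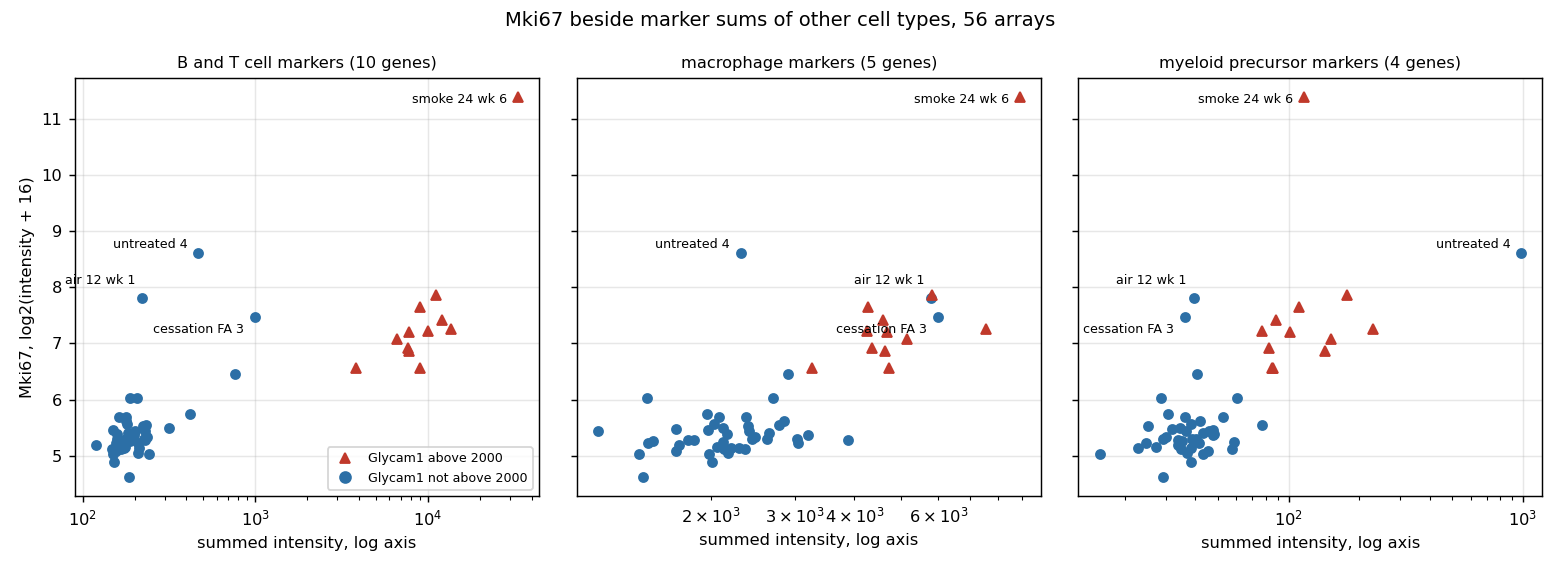
Mki67 level, log2(intensity + 16), against the summed intensity (log axis) of markers of B and T cells, macrophages and myeloid precursors, 1 point per array over 56 arrays. Red triangles, with Glycam1 above 2000, sit at B and T cell sums of 3844 or more, and untreated replicate 4 stands at the highest myeloid sum, 984.

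For 31 of the 34 genes the highest level of the mice was in 24-week smoke replicate 6, an array of high Glycam1. It lay above all 41 arrays for 31 of 34 genes, with a median excess of 2.94, while 24.8% of all genes lay above. Mki67 reached 11.38 there, Birc5 11.39 and Rrm2 12.55. Its B and T cell sum of 33378 was the highest of the 56 arrays, 10 of 10 of those markers lay above all 41, and its macrophage sum was 8882. Genes listed as germinal centre markers summed to 9013 in this array against 4381 to 7448 on the 41, with 5 of 6 above all of them. The brightest of the 6, Bcl6, was not among the 5, at 12.49 against 12.02 to 12.82 on the 41. The satellite cell sum of this array, 915, lay below all 41.

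The first question of the design is whether smoke changed these genes against sham air of the same length. At 24 weeks the genes leaned higher in smoke, but none passed the test. Of 25 genes bright enough to be tested, none passed limma's moderated test over 12351 genes at an adjusted p of 0.05, where 0.47% of all genes did, and 7 of the 25 had an unadjusted p under 0.05, against 3044 of 12351 genes. The difference was above 0 for 32 of 34 genes, against 48.5% of all genes, with a median of 0.62 against -0.01. Without smoke replicate 6 the median was 0.13.

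Mcm4 and Mcm3 had the lowest p. Mcm4 had 9.64, 9.97, 9.99, 9.96, 10.00 and 11.15 in the 6 mice of 24 weeks of smoke, against 9.0, 9.17, 9.96, 9.08, 9.44 and 9.47 in the 6 air mice. It differed by 0.77 ± 0.21 (SE, adjusted p = 0.059), and 1 air mouse lay among the smoke mice. Mcm3 had 7.85, 7.96 and 10.04 (lowest, median, highest) in smoke, against 7.45, 7.61 and 7.80 in air, a difference of 0.72 ± 0.21 with adjusted p = 0.068. The groups did not overlap for Mcm3, the 1 such gene of the 34, while 0.577% of all genes did not. Without smoke replicate 6 the differences were 0.56 for Mcm4 and 0.38 for Mcm3, with adjusted p of 0.29 and 0.33. Probe sets of Mcm4 differed, with a second set at 0.45 against 0.77 with all arrays. Both genes passed with smoke replicate 1, 2, 3 or 4 left out, and Mcm4 also without air replicate 3 (adjusted p as low as 0.023 for Mcm4).

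Mki67 had 7.07, 7.20, 5.69, 5.50, 5.29 and 11.38 in smoke, against 5.57, 5.55, 6.03, 5.28, 5.38 and 6.86 in air. The 3 high smoke mice and the highest air mouse were those with high Glycam1. Its means were 7.02 ± 2.29 in smoke and 5.78 ± 0.59 in air (SD, n = 6 each), a difference of 1.24 ± 0.66 with adjusted p = 0.23. Top2a differed by 1.23 ± 0.77 (adjusted p = 0.30), Birc5 by 1.24 ± 0.65 (adjusted p = 0.22), Ccne1, the cyclin of entry into S phase, by 0.41 ± 0.14 (adjusted p = 0.099) and Prc1, which bundles microtubules between separating chromosomes, by 0.85 ± 0.34 (adjusted p = 0.12). Among genes named for their brightness, Ccna2 had 6.16, 6.76 and 10.24 (lowest, median, highest) in smoke against 5.83, 6.41 and 7.31 in air. Mad2l1 had 6.40, 6.97 and 9.47 in smoke against 6.54, 6.75 and 7.09 in air, and Cdca3 had 5.88, 6.39 and 10.01 in smoke against 5.86, 6.27 and 6.79 in air. For these 3 the groups overlapped and the adjusted p was 0.23, 0.26 and 0.27. Ccne1 had 6.79, 7.01 and 8.12 in smoke against 6.40, 6.79 and 7.0 in air. Mcm7 had 8.98, 9.28 and 10.99 in smoke against 9.14, 9.35 and 9.63 in air, with the lower median in smoke. Pcna and Rrm1 differed by 0.27 and 0.07. Aurka, at -0.11, and Nusap1, at -0.18, were the 2 genes below 0, where a second Nusap1 probe set was at 0.77 and a second Aurka set at 0.11.

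B and T cell markers moved with this comparison. Their sum was 161.9, 3459 and 33378 (lowest, median, highest) in 24 weeks of smoke and 181, 202 and 7747 in air. With the mean of these markers as a covariate the median difference of the 34 genes was 0.24, and none passed (0.194% of all genes did). Without the arrays of high Glycam1, with 3 smoke mice and 5 air mice, the difference was above 0 for 13 of 34 genes, against 48.9% of all genes, and the median was -0.02. None of 25 passed, against 0.364% of all genes, and 4 had an unadjusted p under 0.05, where 2530 of 12351 genes did. Mki67 then differed by -0.07 ± 0.53 and Top2a by -0.38, while Mcm4 differed by 0.66 ± 0.20 (adjusted p = 0.084; 0.06 by its second probe set) and Mcm3 by 0.35 ± 0.13 (adjusted p = 0.13).

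By role, the helicase genes were above 0 in 8 of 8 with all arrays, with a median difference of 0.52, and in 5 of 8 without those of high Glycam1, with a median of 0.07. The 4 genes of synthesis and nucleotides had a median of 0.26 with all arrays and 0.06 without. The 4 cyclin and kinase genes had 0.84 with all arrays and -0.02 without, and the 2 chromatin genes had 1.24 and -0.23. Mitotic kinase, checkpoint and passenger genes had 0.58 with all arrays and -0.03 without, and spindle genes had 0.48 and -0.09. The medians of 2 of the 6 roles, both of replication, stayed above 0 in that setting.

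**Figure D4:**
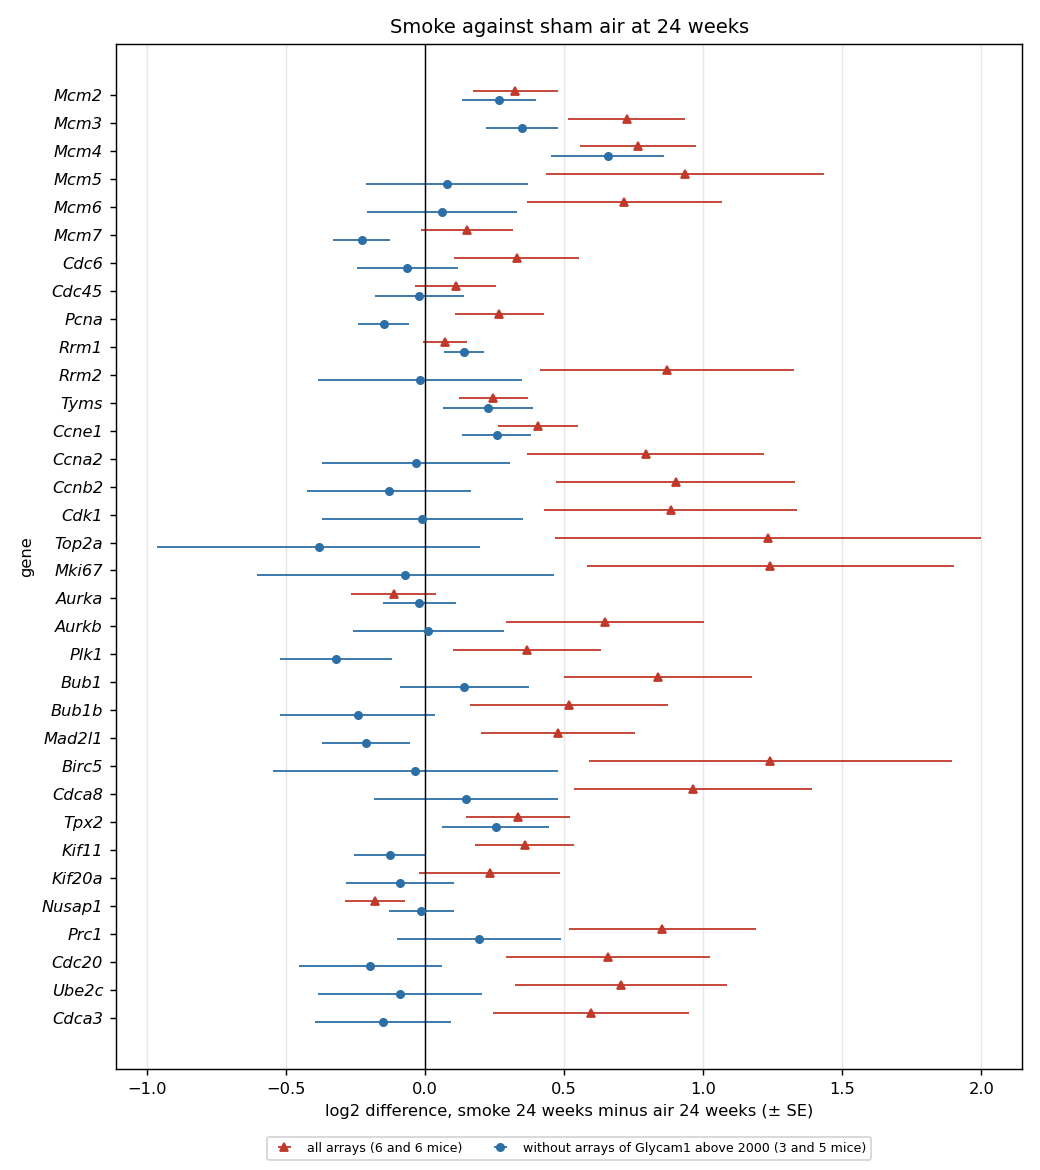
Difference in level, 24 weeks of smoke minus 24 weeks of sham air, with its standard error from the limma fit, for 34 genes. Red triangles use all arrays (6 and 6 mice), blue circles leave out arrays with Glycam1 above 2000 (3 and 5 mice); Mki67 lies at 1.24 in red and -0.07 in blue, and Mcm4 at 0.77 and 0.66.

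At 12 weeks none of the 25 genes passed between smoke and air, against 0.0081% of all genes, and none had an unadjusted p under 0.05, where 230 of 12351 genes did. The difference was above 0 for 20 of 34 genes with a median of 0.05, and for 11 of 34 with a median of -0.15 without the arrays of high Glycam1. That setting keeps 12-week air replicate 1, and without it and the other 2 arrays set apart the difference was above 0 for 18 of 34 with a median of 0.01. The lowest p were those of Rrm1 and Aurka. Rrm1 had 8.96, 9.23 and 9.34 (lowest, median, highest) in smoke against 9.08, 9.31 and 9.45 in air, a difference of -0.11 with adjusted p = 0.999. Aurka had 7.16, 7.78 and 8.22 in smoke against 7.67, 7.94 and 8.26 in air, a difference of -0.21 with the same adjusted p. Mki67 had 5.12, 5.31 and 7.86 in smoke against 5.16, 5.47 and 7.81 in air, so both groups held 1 or more mice far above their median.

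At 2 weeks, where no smoke array and 1 air array had high Glycam1, limma passed none of the 25 genes and 0% of all genes, with 255 of 12351 genes and none of the 25 at an unadjusted p under 0.05. The difference was above 0 for 11 of 34 genes, against 43.7% of all genes, with a median of -0.07 against -0.02. Mki67 had 4.62, 5.16 and 5.44 in smoke against 5.05, 5.43 and 6.91 in air. Mcm2, a helicase subunit, differed by -0.23 and Aurka by 0.29, both with adjusted p = 0.998, and they had the lowest p. Averaged over the 3 times, the difference of smoke from air was above 0 for 31 of 34 genes with a median of 0.18 (0.0076 without 24-week smoke replicate 6). Without the arrays of high Glycam1 it was above 0 for 9 of 34 with a median of -0.08 (12 of 34 and -0.03 with the 3 arrays set apart also out). None passed, against 0.0324% of all genes, 2 of 25 had an unadjusted p under 0.05 (1132 of 12351 genes did), and Mcm3 (0.25) and Mcm4 (0.24) had the lowest p, each with adjusted p = 0.54. The smoke difference at 24 weeks minus that at 2 weeks had a median of 0.62 and was above 0 for 32 of 34 genes, none passed, against 0.0324% of all genes, 6 of 25 had an unadjusted p under 0.05 (2296 of 12351 genes did), and its median was 0.21 without 24-week smoke replicate 6 and 0.06 without the arrays of high Glycam1.

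**Figure D5:**
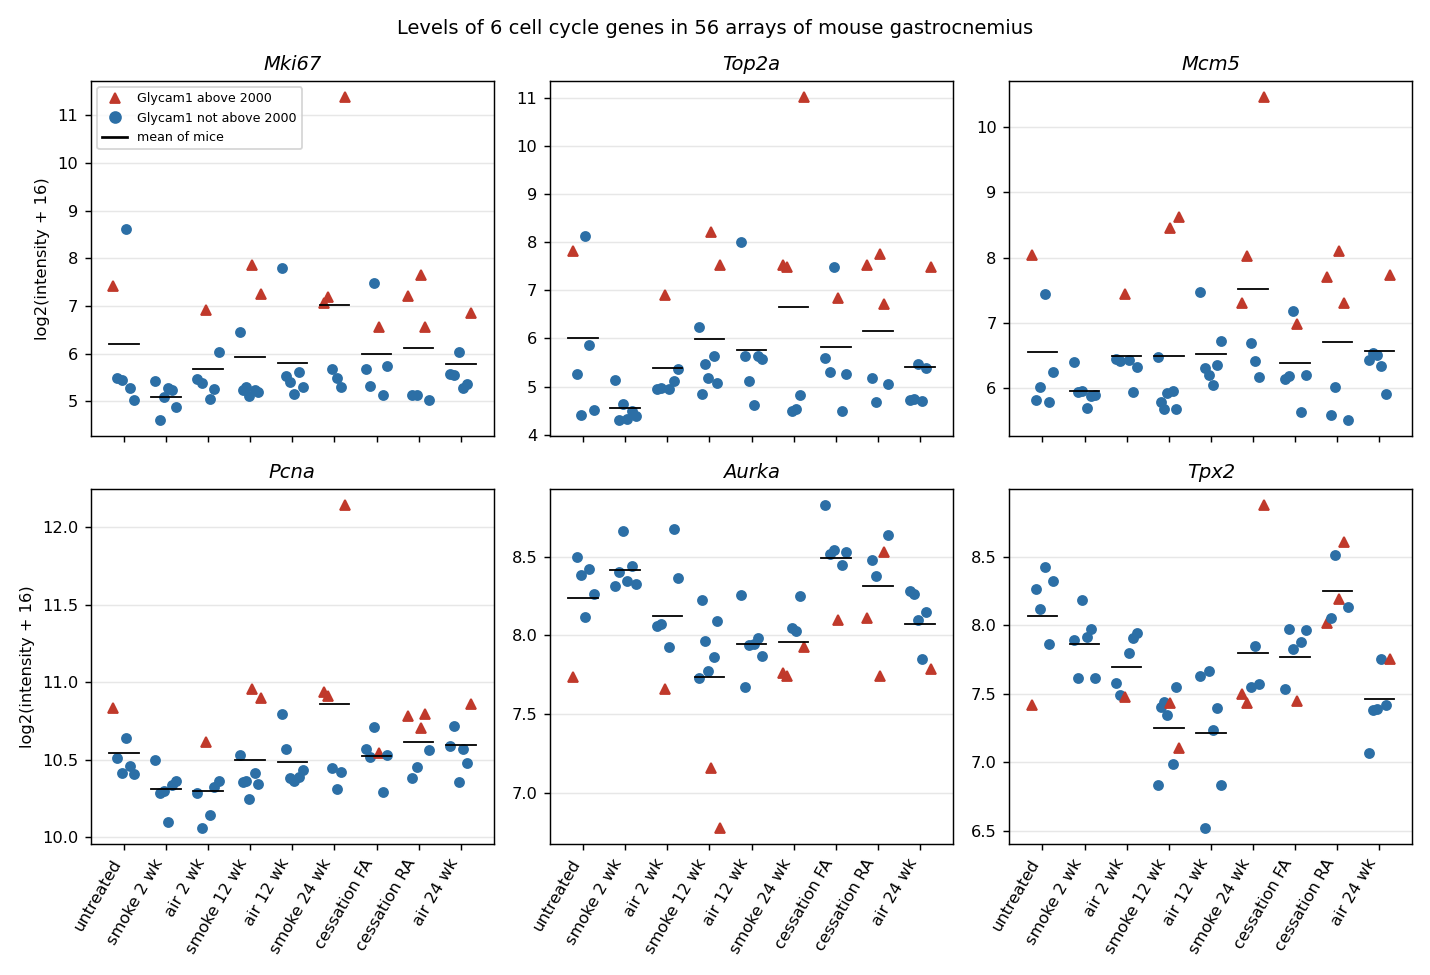
Levels, log2(intensity + 16), of Mki67, Top2a, Mcm5, Pcna, Aurka and Tpx2 in each of 9 groups, 1 point per array, with a black bar at the mean of the mice. Red triangles mark Glycam1 above 2000; they are the high points of Mki67, Top2a and Mcm5 apart from 3 blue ones, and Tpx2 in cessation RA stands at 8.02 or above in all 6 mice.

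Cessation was set against sham air of the same 24 weeks, and both arms and the 24-week smoke group share those air mice. In cessation RA, Tpx2 was higher than in air. It had 8.02, 8.06, 8.51, 8.19, 8.61 and 8.14 in the 6 RA mice, against 7.06, 7.38, 7.39, 7.76, 7.41 and 7.76 in the 6 air mice, and the groups did not overlap, as for 1.59% of all genes. The means were 8.25 ± 0.25 in RA and 7.46 ± 0.26 in air (SD, n = 6 each), and Tpx2 rose by 0.79 ± 0.19, or 1.73-fold (adjusted p = 0.014). It was the 1 gene of 25 to pass, against 1.76% of all genes (0.607% higher). Without the arrays of high Glycam1 it was higher by 0.83 ± 0.19 (adjusted p = 0.0096), with 3 RA and 5 air mice, where 3.97% of all genes passed (1.51% higher).

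The Tpx2 result has limits. A second Tpx2 probe set was higher in RA by 0.55 (adjusted p = 0.40 over all probe sets) and the other 2 probe sets differed by -0.19 and -0.09, so no gene passed when probe sets were averaged, and without air replicate 1 the adjusted p was 0.054. The rest of the genes in RA had differences on both sides of 0. Over the 34 genes the difference from air was above 0 for 27, with a median of 0.13 against -0.01 over all genes, and without the arrays of high Glycam1 it was above 0 for 14, with a median of -0.04. Nusap1 had the next lowest p, at -0.29 (adjusted p = 0.18; 0.22 by its second probe set). Mki67 had 7.21, 5.13, 5.14, 7.65, 6.57 and 5.03 in RA, and the 3 high values are the 3 arrays of high Glycam1, whose group had B and T cell sums of 150, 4591 and 10051 (lowest, median, highest).

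In cessation FA none of the 25 genes passed against air, as 0.081% of all genes did, and 1 had an unadjusted p under 0.05, where 865 of 12351 genes did. The difference was above 0 for 23 of 34 genes with a median of 0.03, against -0.01 over all genes. Without the arrays of high Glycam1 it was above 0 for 23 of 34 with a median of 0.12. That setting keeps FA replicate 3, and with the 3 arrays set apart also out it was above 0 for 17 of 34, with a median of 0.01. Aurka had the lowest p, with 8.83, 8.51, 8.54, 8.10, 8.45 and 8.53 in FA against 7.79, 8.13 and 8.28 (lowest, median, highest) in air. It differed by 0.42 ± 0.15 (adjusted p = 0.42), and by 0.44 with adjusted p = 0.085 without the arrays of high Glycam1, where FA and air did not overlap, as for 1.34% of all genes. Tpx2 differed by 0.31 (adjusted p = 0.80).

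Continued smoke was compared with cessation at 24 weeks. Against FA, Mcm3 rose and Aurka fell in smoke, 2 of 25 genes, where 3.55% of all genes passed (1.6% higher and 1.95% lower). Mcm3 had means of 8.33 ± 0.85 in smoke and 7.63 ± 0.08 in FA (SD, n = 6 each), a difference of 0.70 ± 0.21 (adjusted p = 0.047), with no overlap between the groups, as for 0.956% of all genes. Aurka had 7.76, 7.74, 8.05, 8.03, 8.25 and 7.93 in smoke against 8.83, 8.51, 8.54, 8.10, 8.45 and 8.53 in FA, a difference of -0.53 ± 0.15 (adjusted p = 0.037), and only the FA mouse with high Glycam1 lay among the smoke mice. The second, dimmer Aurka probe set differed by 0.02 here, and the 5 Mcm3 probe sets by 0.45 to 0.76. Without the arrays of high Glycam1 neither passed: Aurka differed by -0.46 (adjusted p = 0.053) and Mcm3 by 0.30 (adjusted p = 0.20), 0 of 25 genes against 1.89% of all genes, with 4 at an unadjusted p under 0.05 (2327 of 12351 genes). With 1 mouse left out, Mcm3 did not pass without smoke replicate 2 or 6 or any FA mouse, its difference falling to 0.36 without smoke replicate 6, and Aurka did not pass without smoke replicate 1, 2 or 6 or FA replicate 1, 2, 3, 5 or 6. The difference was above 0 for 31 of 34 genes with all arrays, with a median of 0.53 (0.05 without smoke replicate 6). Without the arrays of high Glycam1 it was above 0 for 10 of 34 with a median of -0.13. That setting keeps FA replicate 3, which was set apart for high levels of these genes. With the 3 arrays set apart also out it was above 0 for 16 of 34, with a median of -0.03. The B and T cell sums were 161.9, 3459 and 33378 (lowest, median, highest) in smoke and 148, 326 and 3844 in FA.

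Against RA none of the 25 genes passed, where 2.34% of all genes did, and 7 had an unadjusted p under 0.05, against 1953 of 12351 genes. The difference was above 0 for 32 of 34 genes with a median of 0.40 (-0.02 without smoke replicate 6), and for 17 with a median of 0.00 without the arrays of high Glycam1. Tpx2, at -0.46 (adjusted p = 0.20), and Prc1, at 0.82 (adjusted p = 0.21), had the lowest p. Without smoke replicate 6 Tpx2 passed at -0.68 (adjusted p = 0.018). RA set against FA gave no gene that passed, against 0.0243% of all genes, with 2 of 25 at an unadjusted p under 0.05 and 512 of 12351 genes. These were Tpx2, higher in RA by 0.48 with no overlap between groups (as for 0.429% of all genes), and Nusap1, at -0.31, with adjusted p of 0.96 and 0.89.

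The air and untreated mice show how the genes varied with time in the study, in which age and length of sham exposure cannot be told apart. Between 24 weeks of air and the untreated mice none of the 25 genes passed with all arrays, where 2.34% of all genes did, and 1 had an unadjusted p under 0.05, against 2129 of 12351 genes. That gene was Tpx2, with 7.06, 7.38, 7.39, 7.76, 7.41 and 7.76 after 24 weeks of air against 7.42, 8.27, 8.12, 8.43, 7.86 and 8.32 in untreated mice, a difference of -0.61 ± 0.19 (adjusted p = 0.067). The lowest untreated mouse, replicate 1, was the 1 with high Glycam1. Without the arrays of high Glycam1 the groups did not overlap (as for 4.53% of all genes), and Tpx2 fell by 0.80 ± 0.17 (adjusted p = 0.0031), 1 of 25 genes against 9.27% of all genes (3.04% lower). A second Tpx2 probe set differed by -0.55 in that setting, with adjusted p = 0.049 over all probe sets.

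Pcna differed between 24 and 2 weeks of air. It had 10.59, 10.72, 10.36, 10.57, 10.48 and 10.86 at 24 weeks, against 10.29, 10.06, 10.62, 10.15, 10.32 and 10.37 at 2 weeks, where the 10.62 and the 10.86 are arrays of high Glycam1. With all arrays the difference was 0.30 ± 0.16 (adjusted p = 0.46) and none of the 25 genes passed, where 0.219% of all genes did, and none had an unadjusted p under 0.05, where 1462 of 12351 did. Without those arrays the means were 10.54 ± 0.13 at 24 weeks and 10.24 ± 0.13 at 2 weeks (SD, n = 5 each), and Pcna rose by 0.31 ± 0.08 (adjusted p = 0.029), 1 of 25 genes against 2.71% of all genes (1.81% higher). Between 12 and 2 weeks of air, Tpx2 had 6.52, 7.32 and 7.66 (lowest, median, highest) at 12 weeks against 7.48, 7.69 and 7.95 at 2 weeks, at -0.49 (adjusted p = 0.54). It was the 1 gene at an unadjusted p under 0.05 (765 of 12351 genes), and none passed, against 0.0081% of all genes. Between 2 weeks of air and untreated mice none passed either, against 0.518% of all genes. None had an unadjusted p under 0.05 (911 of 12351 genes did). The median difference was -0.19 with all arrays and also -0.19 without those of high Glycam1. It was 0.05 with the 3 arrays set apart also out. Among these is untreated replicate 4, set apart for high levels of these genes.

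Beyond the 34 genes, 113 of 116 other listed cell cycle genes were measured and 75 were tested. Between 24 weeks of smoke and air limma passed none of them. An unadjusted p under 0.05 was found for 10 of 24 tested genes of replication and S phase, 7 of 23 of G2 and mitosis, 3 of 15 of G1 control and 4 of 13 kinase inhibitors and p53 targets, beside the 3044 of 12351 genes given above. Genes of G2 and mitosis were above 0 for 52 of 56 with a median difference of 0.41, and for 27 of 56 with a median of -0.02 without the arrays of high Glycam1. Genes of DNA replication and S phase were above 0 for 24 of 26 with a median of 0.32, and for 16 of 26 with 0.06. Genes of G1 control, the start of the cycle, were above 0 for 13 of 16, and for 4 of 16 without those arrays. Inhibitors of cyclin-dependent kinases and p53 targets were above 0 for 6 of 15, and for 7 of 15 without those arrays.

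Wee1, the kinase that holds Cdk1 inactive, passed in more comparisons than any member. Wee1 had a level of 8.32 ± 0.14 in cessation RA and 8.75 ± 0.22 in cessation FA, against 9.23 ± 0.22 in sham air at 24 weeks (SD, n = 6 each). It fell by 0.90 ± 0.10 in RA (adjusted p = 4.7e-08) and by 0.48 ± 0.10 in FA (adjusted p = 0.039), and without the arrays of high Glycam1 by 1.00 and 0.49. In 24 weeks of smoke it was 9.35 ± 0.12, higher than in RA by 1.02 (adjusted p = 5.0e-10) and than in FA by 0.60 (adjusted p = 0.00038). It was 8.63 ± 0.21 in untreated mice, and higher after 2 weeks of air, at 9.38 ± 0.12, by 0.75 (adjusted p = 3.9e-06). Without the arrays of high Glycam1 each of these 5 differences of Wee1 passed again.

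Cdkn1a, the p21 inhibitor of cyclin-dependent kinases, was 9.14 ± 0.51 in 24 weeks of smoke against 9.96 ± 0.48 in cessation RA, and fell by 0.82 ± 0.20 (adjusted p = 0.013). After 2 weeks of air it was 9.23 ± 0.33 against 10.11 ± 0.49 in untreated mice, and fell by 0.88 (adjusted p = 0.015). E2f3, a transcription factor of the E2F family, fell in 24 weeks of smoke against FA by 0.38 (adjusted p = 0.0019) and against RA by 0.27 (adjusted p = 0.029). Pkmyt1, a second inhibitory kinase of Cdk1, rose in 24 weeks of smoke against FA by 0.80 ± 0.23 (adjusted p = 0.038), and it did not pass without the arrays of high Glycam1. Cdkn1b, the p27 inhibitor, fell by 0.29 after 24 weeks of air against untreated mice (adjusted p = 0.035), where Wee1 rose by 0.60 (adjusted p = 0.00039).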

How the data were processed

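Gene expression was measured on 56 arrays of gastrocnemius RNA from 55 mice, amplified and biotin-labelled per the labels' protocols. The authors deposited a linear intensity for each of 45037 probe sets. Their summarising of probes and their normalization are "not given in the sources used here". Values were floored at -15 (5 of 2522072 moved), 16 was added and log2 of the deposited intensity was taken, with no further scaling. Of the probe sets, 34945 had 1 gene symbol in the platform annotation, 932 had several and 9160 had none. Each of 18193 genes was read from its brightest probe set on average, and 12351 genes at or above the 40th percentile of all probe sets (5.71) were tested, which held 25 of the 34 genes described and left out Cdc6, Tyms, Ccnb2, Aurkb, Plk1, Bub1, Bub1b, Kif11 and Kif20a. The 24 genes with several probe sets and 10 with 1 had 77 in all. Arrays have no read depth, and their number limits the precision.

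A single limma model held the 9 groups (46 residual degrees of freedom, 48.2 with moderation) and gave 14 comparisons, with Benjamini-Hochberg adjustment over all genes tested and a threshold of 0.05. Adjusted p values in the text are from these moderated tests. Leaving out the 12 arrays with Glycam1 above 2000 left 44 mice (35 degrees of freedom), and leaving out 3 more left 41 (32). Differences of genes below the limit are from the same model fitted without it.

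Values by group were given for the 2 genes of highest mean in each of 6 roles (Mcm4, Mcm7, Pcna, Rrm1, Ccne1, Ccna2, Mki67, Top2a, Aurka, Mad2l1, Tpx2 and Cdca3) and for genes that passed, or the 2 of lowest p where none did. Others, such as Mcm5, Birc5, Cdk1 and Rrm2, were named after their values were seen. The genes, the 4 lists of other cell cycle genes and the 11 marker lists were chosen with earlier results of these data known. On the arrays of high Glycam1, marker sums not given elsewhere ran over 92.8 to 216 intensity units for erythroid cells, 91.0 to 202 for thymocytes, 7011 to 10686 for lymph node vessels, 2033 to 4048 for endothelium, 12141 to 19648 for fibroblasts, 3267 to 8882 for macrophages, 77.2 to 228 for myeloid precursors, 4814 to 9013 for germinal centres and 915 to 2493 for satellite cells. On the 41 others they ran over 104 to 206 for erythroid cells, 48.2 to 192 for thymocytes, 16.1 to 323 for lymph node vessels, 2486 to 4029 for endothelium, 11954 to 19917 for fibroblasts and 1972 to 4260 for satellite cells.

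Alternatives were another filter or none, the mean of probe sets, every probe set on its own, pseudocounts of 1 and 64, quantile normalization, array weights, robust moderation with a trend, the compared groups alone, either G8 array alone, the lymphocyte marker mean as a covariate, the number in sample titles as a covariate, leaving out arrays whose identifiers lie outside the main block, an adjusted p under 0.1, and each mouse left out in turn. The fits were first tested on simulated data with known answers. R 4.3.3, limma 3.58.1, data.table (version 1.17.8), Python 3.11.15, numpy 2.4.6, pandas 2.3.3 and matplotlib 3.10.9 were used.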

Additional observations from a re-analysis of the deposited data

Results flagged for a closer look

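Of 117 tests of 13 genes in 9 groups, 21 found a mouse whose gap to the nearest other was large against its group's range. Chance gives about 1 in 20 for a single test. The genes were read on the same mice, so the tests are not independent and the 21 cannot be set against that rate. Mcm3 was among the 13 because it passed for 24 weeks of smoke against FA, which it did not without smoke replicate 6. The most, 10, fell on 24-week smoke replicate 6, an array of high Glycam1 and the highest of its group for each of the 10 genes. It had 12.14 for Pcna (next 10.94), 11.38 for Mki67 (7.20), 8.12 for Ccne1 (7.07), 10.24 for Ccna2 (7.32), 11.15 for Mcm4 (10.00), 10.99 for Mcm7 (9.51), 10.04 for Mcm3 (8.24), 9.47 for Mad2l1 (7.35), 8.88 for Tpx2 (7.85) and 10.01 for Cdca3 (6.78).

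12-week air replicate 1, with all 5 macrophage and 2 of 4 fibroblast markers above the 41 arrays, was highest for 4 genes. It had 7.81 for Mki67 (next 5.61), 8.01 for Top2a (5.64), 8.18 for Ccna2 (6.71) and 7.49 for Cdca3 (6.51). This array and cessation FA replicate 3 had been set apart for high levels of these genes, so their flags describe that choice. Top2a stood apart on 3 arrays of high Glycam1, at 6.91 in 2-week air replicate 3 (next 5.37), 8.21 in 12-week smoke replicate 5 (6.30) and 7.48 in 24-week air replicate 6 (5.46). Mcm7 was 9.42 in 2-week air replicate 3 (next 9.14). Ccna2 was 7.56 in cessation FA replicate 3 (next 6.73) and lowest, at 5.95, in 2-week smoke replicate 4 (next 6.28). Aurka was 8.66 in 2-week smoke replicate 3 (next 8.44).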

How the results depend on the processing

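In the comparisons where no gene passed at 2 weeks, 12 weeks, over the 3 times, in FA against air, in RA against FA, and in the 2 earlier air comparisons, none passed under any alternative run. Beside each number that passed stands the share of all tested genes that passed in the same setting. For 24 weeks of smoke against FA, where 2 genes had passed, 0 passed without the filter (1.56%), with the mean of probe sets (4.54%), with every probe set tested, with the compared groups alone (0.0486%), with the lymphocyte covariate (1.61%), with the G8 array of high Glycam1 alone (2.31%), without 24-week smoke replicate 6 (1.02%), without the arrays of high Glycam1 (1.89%), or without these and 3 more (1.23%). In that comparison 1 passed with quantile normalization (3.91%), 1 with array weights (4.46%), 1 with the lymphocyte covariate without the arrays of high Glycam1 (1.68%), and 4 at an adjusted p under 0.1 (12.3%). For 24 weeks of smoke against air 1 passed with the filter at the 60th percentile (1.46%), 1 with array weights (4.6%) and 3 at an adjusted p under 0.1 (6.55%). For RA against air 0 passed with the mean of probe sets (1.74%), 2 with the lymphocyte covariate (4.9%), and 2 without the arrays of high Glycam1 and 3 more (4.1%). For 24 weeks of smoke against RA 1 passed with array weights (4.87%), 1 without 24-week smoke replicate 6 (2.02%) and 2 without the arrays of high Glycam1 and 3 more (3.43%). For 24 against 2 weeks of air 1 passed with array weights (7.94%), without the arrays of high Glycam1 (2.71%), with the covariate as well (2.7%) and with 3 more out (4.29%). For 24 weeks of air against untreated mice 1 passed with array weights (13%), with the lymphocyte covariate (9.15%, or 12.8% without those arrays), without those arrays (9.27%), without 24-week smoke replicate 6 (5.68%) and at an adjusted p under 0.1 (4.8%), and 2 without those arrays and 3 more (9.56%). The smoke difference at 24 weeks minus that at 2 weeks had 2 with array weights (5.96%). The 3 further arrays were chosen for high levels of these genes, so calls without them are no evidence. The median difference at 24 weeks of smoke against air was -0.021 without the arrays of high Glycam1, also with 3 more out, and -0.10 with the lymphocyte covariate as well. Against FA it was -0.13 without the arrays of high Glycam1 and -0.03 with 3 more out. Aurka at 12 weeks of smoke against air, -0.21 with all arrays, was 0.0124 with the lymphocyte covariate without the arrays of high Glycam1 and 0.0593 without them and 3 more. The cause of these shifts was not tested.

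With each mouse left out in turn, the number that passed was 0 to 2 for 24 weeks of smoke against air, 0 to 4 against FA, 0 to 1 against RA, 0 to 1 for RA against air, 0 to 1 for 24 weeks of air against untreated mice (1 without untreated replicate 1, Tpx2 at adjusted p = 0.027), and 0 elsewhere. In those settings 0.0324% to 4.43% of all genes passed against air, 1.02% to 13.2% against FA, and 1.15% to 3.89% against RA. The median difference then ran over 0.13 to 0.80 against air and 0.05 to 0.66 against FA, each lowest without 24-week smoke replicate 6. No paired analysis was possible because replicate numbers follow the order of the samples and pair no mice across groups. Dim probe sets limit what can be seen: 9 of the 34 genes lay below the level at which genes were tested.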
